A study of Drosophila melanogaster with 837 samples.

Results

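Cells transcribing Ptx1, a paired-class homeodomain transcription factor of the Pitx family, were compared with cells of the same sort in which no read of Ptx1 was counted. The members were chosen by reads alone, and a gene is called detected in a cell at 10 or more reads. At least 500 genes reached 10 or more reads in 96.7% of the deposited cells. Of these, 40 cells (4.94%) had 10 or more reads of Ptx1 (Ptx1-positive) and 93.8% had 0 reads (Ptx1-negative), and together they were 95.5% of all deposited cells. The 10 cells with 1 to 9 reads were on neither side. Among the 40 positive cells, 11 also had 10 or more reads of escargot (esg) and 29 did not. Of the Ptx1-negative cells, 80 had 10 reads of esg (9.89% of the cells that passed) and the others, 83.9%, did not. The values of Ptx1 and of esg in these sets follow from that choice and are given as description.

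All cells came from Drosophila melanogaster embryos of 19 to 20 h that carried the Mhc-TAU-GFP reporter, driven from Mhc, a myosin gene of muscle. Pooled embryos were dissociated, and live nucleated cells with GFP fluorescence (DRAQ5 positive, DAPI negative) were sorted into single wells for full-length Smart-seq2 libraries, to which primers for the Hox genes had been added. All libraries carry 1 common label and no treatment. Since nothing ties a cell to an embryo or a pool, the cells count as 1 sample without biological replicates, no test was run, and 15 plates served as the technical unit. Intervals in brackets are exact Clopper-Pearson 95% intervals and cover counting error only, since the libraries were amplified and carry no molecular identifiers.

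The label of the sort is somatic muscle, but the defining marker was scarce in these cells. Mhc reached 10 reads in 13.5% of the cells that passed, among them 2 of the 40 Ptx1-positive cells (5.0%) and 14% of the Ptx1-negative cells. The summed level of 24 contractile genes was 43.2 to 2487 CPM (reads of a gene scaled to 1000000 reads of the cell) in positive cells, with a median of 734.3, and 0 to 327144 in negative cells, with a median of 130.8. The order was the other way for means over cells, with a median log2 difference of -4.82 over the 24 genes (positive against negative). The sum includes the non-muscle light chain gene Mlc-c, whose part in it was not tested. Median depth was 770219 reads in positive and 782021 in negative cells, and a median of 1937.5 against 1614 genes reached 10 reads. Ribosomal RNA took a median of 27.4% of the reads in positive cells and 34.8% in negative cells.

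Ptx1 belongs to the regional factors of the fly digestive tract and is also known from ventral body wall muscles of the embryo. esg encodes a Snail-type zinc finger protein that marks the progenitor cells of the midgut. The Malpighian tubules, the renal organs of the fly, bud from the hindgut and secrete urine through principal cells, which carry a vacuolar proton pump, and stellate cells, which pass chloride and water and answer to the hormone leucokinin.

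Ptx1 (FBgn0020912, chromosome 3R, 30912754 to 30930682, plus strand, BDGP6) was counted at 11 to 2805 reads in the 40 cells, with a median of 110.5 reads. That is 4.94% of the cells that passed (interval 3.56 to 6.67). Positive cells were found on all 15 plates, at 5.01% ± 2.86 of the cells of a plate (SD, n = 15 plates), from 1.61% to 10.9%. When each cell was thinned to 256773 reads, 34 cells stayed at 10 reads (4.67% of those deep enough). Of the 40 positive cells, 37 were deep enough for this and 3 were too shallow to be assessed. The cells just inside the threshold had 11, 15 and 24 reads and those just outside had 9, 9 and 9.

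The level of Ptx1 differed between the positive cells with and without esg. In the 11 esg-positive cells it was 133.5 CPM at the lowest, 889.02 at the median and 3316 at the highest. In the 29 esg-negative cells it was 10.7, 112.7 and 1017 CPM. The ranges overlapped, but all 11 esg-positive cells had at least 50 reads of Ptx1, against 22 of the 29 others. Of the 3 annotated transcripts with reads, Ptx1-RC took 50.1% of the reads of the gene in positive cells, while Ptx1-RA and Ptx1-RE had equal estimates (24.9% each) and were not told apart. The only gene that overlaps Ptx1 in the annotation is lncRNA:CR44041.

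**Figure D1:**
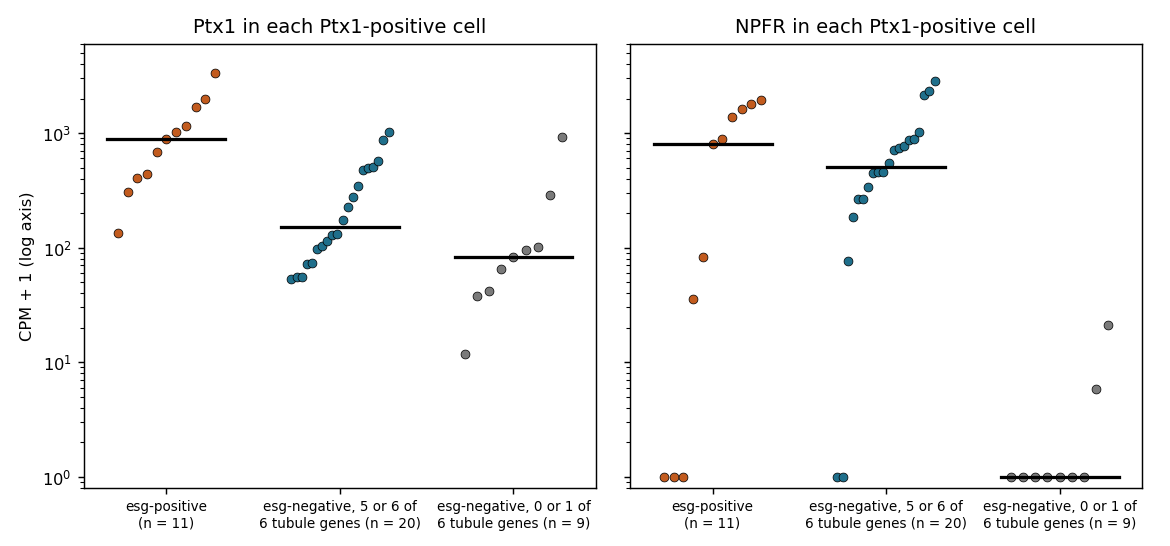
Level of Ptx1 (left) and of the neuropeptide F receptor gene NPFR (right) in each of the 40 Ptx1-positive cells, as CPM + 1 on a log axis, with 1 point per cell, cells ordered by level within a set and a bar at the median. The 11 esg-positive cells and the 20 esg-negative cells with tubule genes hold NPFR at medians of 799.4 and 504.6 CPM, and the 9 remaining cells at no more than 20.2 CPM.

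esg itself was at 10 reads in 11 of 40 Ptx1-positive cells (27.5%, interval 14.6 to 43.9) and in 80 Ptx1-negative cells (10.5%, interval 8.45 to 12.9). Read from the other side, 11 of the 94 esg-positive cells were Ptx1-positive (11.7%, interval 5.99 to 20). After thinning, 27% of positive and 9.06% of negative cells held esg. The esg level in the 11 cells was 82.8, 1856 and 6952 CPM at the lowest, median and highest cell.

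Over all positive cells, tubule and gut genes were among those higher, and genes of blood cells and fat body among those lower. A gene was called when the log2 of (mean CPM + 1) differed by 2 or more between the sets and at least 25% of the cells of the higher set had 10 reads. This is a rule of size, not a test. Of 8828 genes at 10 reads in at least 5 cells, 3.82% were called higher in positive cells and 3.02% lower. Against this background 10 of 21 measured Malpighian tubule genes were higher and 1 was lower, 11 of 20 subunits of the vacuolar proton pump were higher and none lower, and 8 of 22 gut regional factors were higher, Ptx1 itself among them. The median log2 difference was 1.91, 2.22 and 1.88 in these lists and 0.26 over all genes. The lists and the members named were chosen with earlier results of these data known, and Nep2 of the tubule list had marked these cells there. Of the genes called higher, tsh is on both the tubule and the gut list, and Vha55 on both the tubule and the pump list.

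The positive cells were not alike, and the esg state divided them. Detection of 18 midgut progenitor markers other than esg had a median of 7 markers in the 11 esg-positive cells and of 2 in the 29 others. The 21 tubule markers were detected at a median of 1 and 9. The sets were therefore described apart, each against the Ptx1-negative cells of the same esg state.

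**Figure D2:**
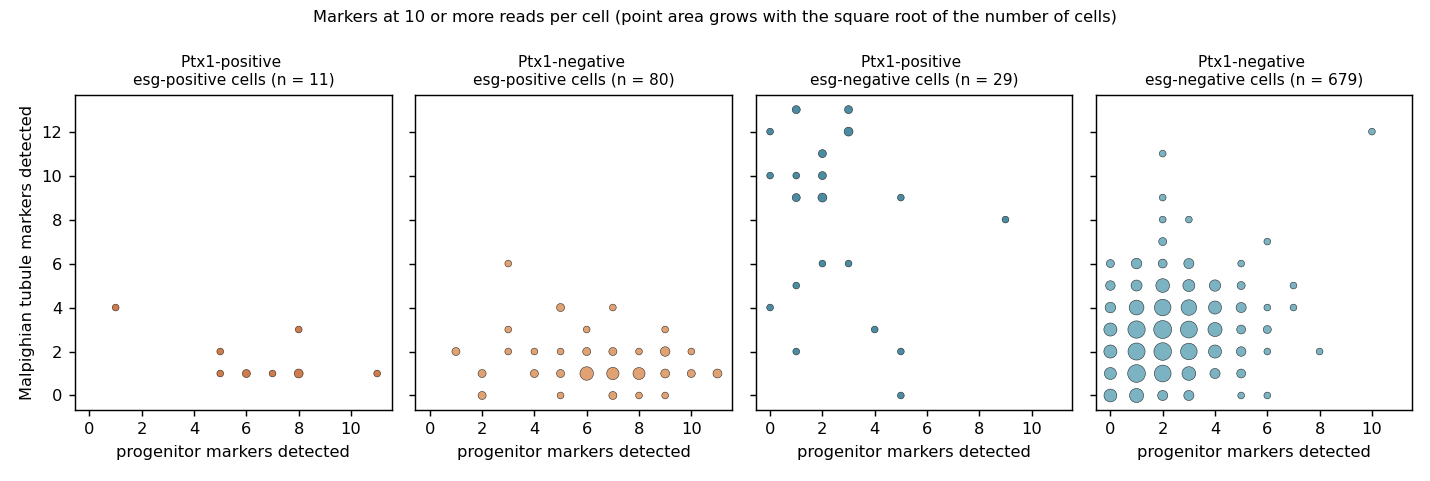
Number of Malpighian tubule markers (of 21, vertical) against number of midgut progenitor markers without esg (of 18, horizontal) at 10 or more reads in each cell, in 4 sets by Ptx1 and esg state; point area grows with the square root of the number of cells. The median cell has 9 tubule markers among Ptx1-positive esg-negative cells and 3 among Ptx1-negative esg-negative cells; the median of progenitor markers is 7 in both esg-positive sets and 2 in both others.

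In the 29 esg-negative positive cells, genes of the Malpighian tubule epithelium and of the middle midgut were higher. Against the Ptx1-negative esg-negative cells, 4.8% of the genes compared were higher and 3.51% lower. Of the 21 tubule genes 12 were higher, and the median log2 difference of the list was 2.32, against 0.08 over all genes. The 12 were Nep2, tsh, tio, Irk1, ClC-a, Drip, CapaR, Lkr, Vha55, Ncc69, Picot and ZnT35C. The eye pigment gene v, a tryptophan oxygenase, was the 1 lower member, and the remaining 8 were not called. Without plate 6 the count of higher genes was 11, Irk1 being lost. Genes of the middle midgut, whose copper and iron regions take up metals, were higher as well: 9 of 19 measured genes of that list (dve, Ptx1, CAH1, MtnA, Ctr1B, ZnT35C, Drip, CG34284 and CG42807) and none lower, with a median log2 difference of 3.83. It shares Drip and ZnT35C with the tubule list. Of its higher members, Ptx1 chose the cells, and CG34284 and CG42807 had marked them in earlier results, as had Nep2 of the tubule list. These calls, and their part in the list medians, are given as description. The metallothionein gene MtnA was at a median of 371.1 CPM in positive and 0 CPM in negative cells and was detected in 25 of 29 positive cells (log2 difference 4.38).

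Of the tubule genes, Lkr, the leucokinin receptor (chromosome 3L, 5512421 to 5529341), was at 0, 85.5 and 2172 CPM in the lowest, median and highest positive cell. It reached 10 reads in 17 of 29 positive cells (58.6%, interval 38.9 to 76.5) and in 4 negative cells (0.589%, interval 0.161 to 1.5). The mean level was 483.6 against 1.79 CPM, a log2 difference of 7.44 (6.66 without plate 6). The median negative cell was thus at 0, although the highest of them, at 482.1 CPM, stood within the range of the positive cells.

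CapaR, the receptor for Capa peptides of tubule principal cells, was detected in 13 of 29 against 6 negative cells, at means of 180.98 and 10.1 CPM (log2 difference 4.04). The glycoprotein hormone receptor gene Lgr1, which was not on the tubule list, was detected in 21 against 10 cells and was at means of 417.5 and 8.15 CPM (log2 difference 5.52).

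Channels and transporters followed. The aquaporin gene Drip was at 10 reads in 18 of 29 positive and 11 negative cells, with CPM values of 0, 346.8 and 3364 in the lowest, median and highest positive cell and a log2 difference of 6.80. The chloride channel gene ClC-a was also common among negative cells. It was detected in 22 positive cells and in 25.9% of the negative cells. Its median was 567.5 CPM in positive and 0 CPM in negative cells (log2 difference of means 4.34). The zinc transporter gene ZnT35C was detected in 20 against 9 cells, at means of 516.95 and 3.57 CPM (log2 difference 6.82). The potassium channel gene Irk1 and the cotransporter gene Ncc69 (the former overlaps cnc) were just past the size rule, at log2 differences of 2.03 and 2.32. A further chloride channel gene off the list, CG7589 (SecCl in the annotation used here), was at a median of 2773 CPM in positive cells and was detected in 20 against 14 cells.

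The vacuolar proton pump, which energises transport in principal cells and acidifies organelles in every cell, was higher in 12 of 20 measured subunits and lower in none, with a median log2 difference of 2.29. Without plate 5 the count was 7 of 20. Vha55 was also counted among the higher tubule genes. The summed level of the 20 subunits had a median of 10432 CPM here and of 27032 CPM in the 11 esg-positive cells, and the median log2 difference between these sets was -1.03. In Ptx1-negative cells the median of the sum was 1571 CPM without esg and 8558 CPM with it, the latter near that of the 29 cells. Vha16-1, of the membrane ring, was detected in 28 of 29 positive and 70.4% of the negative cells, at medians of 679.5 and 62.2 CPM. The difference here was one of level, with the ranges overlapping. One isoform of the largest membrane subunit, Vha100-5, differed instead in detection, with 19 of 29 cells against 15 negative cells (2.21%) and a log2 difference of 5.51. Vha100-4, the isoform known from copper cells of the middle midgut, was detected in 3 positive and 12 negative cells and was not called.

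Of 22 gut regional factors, 10 were higher (Ptx1 itself, GATAe, cad, dve, bab2, fkh, bowl, hth, tsh and apt) and none was lower, and the list's median log2 difference was 2.74. tsh was also counted among the tubule genes, and dve and Ptx1 among those of the middle midgut. tsh and the tubule gene tio, paralogous zinc finger genes that mark stellate cells, were detected in 21 and 20 of the 29 cells. tio was at a median of 66.2 CPM and in 13 negative cells (log2 difference 5.02). tsh was at a median of 823.9 CPM but also in 22.2% of the negative cells, for a log2 difference of 4.47. fkh, a forkhead factor of the gut, was detected in 22 of 29 positive cells and 19 negative cells, at a median of 221.2 CPM (log2 difference 4.38). The homeodomain gene hth was in 25 positive cells at a median of 755.6 CPM, and in 43.7% of the negative cells. dve, GATAe, cad and bowl, detected in 17, 16, 12 and 16 positive cells, had lower medians, from 3.42 CPM for cad to 30.4 CPM for dve.

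Genes of the smooth septate junction, the barrier of midgut and tubule epithelia, were found in most of these cells. mesh was detected in 27, Ssk in 25 and Tsp2A in 25 of 29 positive cells. Their medians were 1583, 4935 and 1286 CPM in positive cells and 0 in negative cells, of which 5.74%, 19.3% and 7.36% had 10 reads. The log2 differences were 4.73, 4.58 and 4.40. Each of the 3 overlaps another counted gene on the opposite strand (bnk, CG42674 and MTPAP), and the sources used here do not say that strand was used in counting. Pvf1, a growth factor of the PDGF and VEGF family, was detected in 20 against 25 cells at a median of 736.2 CPM in positive cells.

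The 5 further genes that had marked these cells in earlier results fell in the same set. CG34284 and CG14292 are neighbours on the minus strand of chromosome 3R (18902338 to 18902933 and 18904933 to 18905655). CG14292 was at 0, 3634 and 27375 CPM in the lowest, median and highest of the 29 cells and was detected in 20 of them and in 12 negative cells, with a log2 difference of 8.21 (7.58 without plate 6 and 8.88 without plate 11). CG34284 was detected in 22 against 14 cells, at a median of 4303 CPM in positive cells (log2 difference 7.26). The neprilysin Nep2, a peptide-degrading enzyme, was in 21 against 14 cells at a median of 946 CPM (log2 difference 6.95). CG42807 and Mur18B, a mucin-related gene, were in fewer cells: 14 and 8 of 29, against 13 and 3 negative cells, with medians of 0 and highest values of 72979 and 23971 CPM. None of the 5 had a read in any of the 11 esg-positive cells.

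Among the leading genes by size with 10 reads in 50% or more of these cells were also CG13285 (mean 1323 against 1.04 CPM, 15 of 29 cells against 1 negative cell, log2 difference 9.34, or 10.45 without plate 11), CG3270 (2619.8 against 3.92 CPM), CG33124 (884.2 against 1.69 CPM, 22 against 4 cells), CG14945 (PLCXD in the annotation used here, 2665 against 10.7 CPM), CG34043 and CG42272. No function is given here for the CG genes. CG13285 and Lkr are neighbours on chromosome 3L. CG3270, CG14945 and CG42272 overlap Mob4, JhI-21 and S6k on the opposite strand.

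The tubule genes were not spread evenly over the 29 cells. Of the genes Lkr, Drip, tio, tsh, ClC-a and Nep2, 14 cells had all 6 at 10 reads, 6 cells had 5, and the other 9 had 0 or 1, with no cell between. Thus 20 of 29 cells held 5 or 6 of them (69%, interval 49.2 to 84.7). Among the Ptx1-negative cells 2 did (0.264%, interval 0.0319 to 0.949), and none of the 11 esg-positive cells, for which the interval is 0 to 28.5%. These 6 genes were picked after their values had been seen, so the split is a description. Over the full list of 21 tubule genes no such gap was seen, the 9 cells holding 0 to 8 and the 20 cells 9 to 13. Read from the other side, 23 cells that passed held 5 or 6 of the genes, and 20 of them were Ptx1-positive (87%, interval 66.4 to 97.2). A further 1 had 1 to 9 reads of Ptx1.

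**Figure D3:**
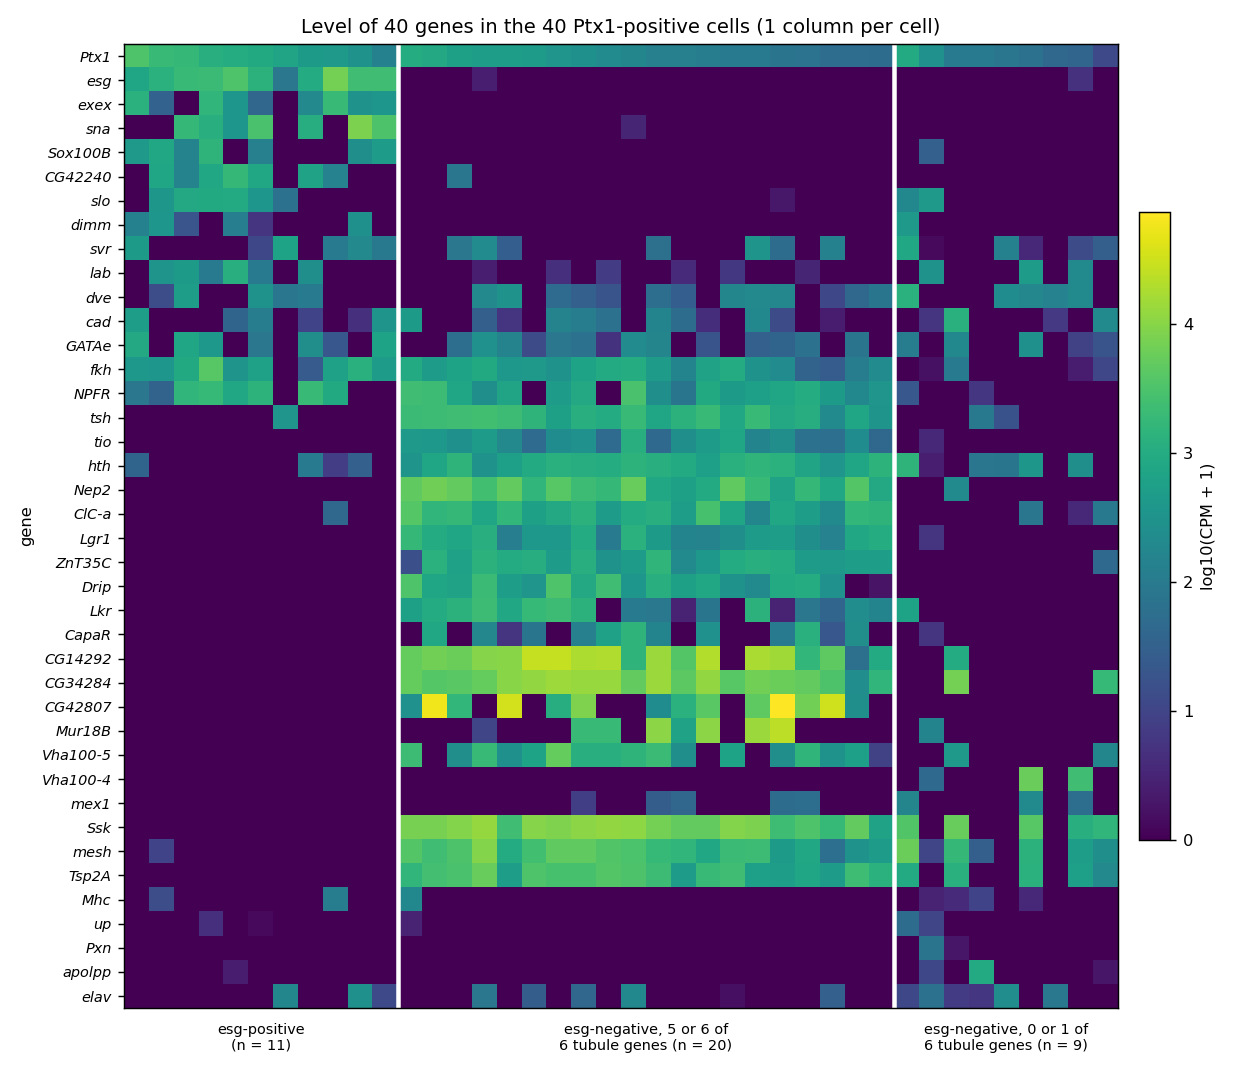
Level of 40 genes (vertical) in the 40 Ptx1-positive cells (1 column each), as log10(CPM + 1), with the 11 esg-positive cells on the left, the 20 esg-negative cells with 5 or 6 of the 6 tubule genes in the middle and the 9 other esg-negative cells on the right, each ordered by Ptx1. fkh, tsh, tio, hth, Nep2, ClC-a, Lgr1 and CG34284 fill all 20 middle columns, where exex has no read and esg is at no more than 1.6 CPM.

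The 20 cells came from 11 plates. The further genes given here were named for their values in sets that include these 20 cells, so their presence in all 20 is given as description. In all 20 of them fkh, hth, Lgr1, CG34284, Ssk, mesh, Tsp2A, axo, CG7589, CG13323, CG14945 and the predicted exchanger gene Nha2 were at 10 reads. Of these, hth, Ssk, mesh and Tsp2A were not particular to the 20 cells, being at 10 reads in several of the other esg-negative positive cells as well. fkh was at 24.6, 455.5 and 1011 CPM in the lowest, median and highest of these cells, and hth at 299.1, 983 and 1512. Ptx1 was at 52.3, 151.5 and 1017 CPM. Other genes divided them: Lkr was in 16 of 20, CapaR in 12, dve and GATAe in 12 each, CG42807 in 14 and Mur18B in 7. The Hox gene lab, for which primers had been added, was in none, at no more than 6.37 CPM. Neither were the progenitor genes exex, sna and Sox100B nor the blood cell and fat body genes Pxn and apolpp.

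The 9 remaining esg-negative cells, from 6 plates, held Ptx1 at 10.7, 81 and 929 CPM in the lowest, median and highest cell, overlapping the other 20, and differed from each other in the genes they held. In 3 of them lab was at 203.7, 474.5 and 301.95 CPM. The same 3 cells were the only positive cells with Vha100-4, at 2340, 5551 and 44.3 CPM. The first 2 of these also had 8 and 9 of 13 enterocyte markers. The third, with 3159457 reads, had 12 contractile, 11 neuron and 9 progenitor markers and was the only one of the 29 with Sox100B. Another cell, the shallowest of the 40 at 98988 reads, held the peptide hormone factor dimm (424.3 CPM), pros (1384 CPM), mesh (5789 CPM), Lkr (666.7 CPM) and the highest Ptx1 of the 9. fkh was at 10 reads in 2 of the 9 and NPFR in none, against 20 and 18 of the 20.

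In the 11 esg-positive cells the comparison with 80 esg-positive cells without Ptx1 gave fewer calls and other genes. Of the genes compared, 2.15% were higher and 1.03% lower, and the median log2 difference over all genes was -0.13. None of the 21 tubule genes and none of the 20 pump subunits was called, although the median log2 difference of the pump subunits was 1.26. Of 12 enteroendocrine markers 4 were higher (ITP, svr, Phm and 7B2) and 1 was lower (mirr), and of 14 neuron markers 3 were higher (fne, Csp and para). These counts rested on few cells: without plate 5 svr and Phm were the enteroendocrine genes left, and without plate 13 Csp was the neuron gene left. The 11 cells held 1 to 4 neuron markers each, except for 1 cell with 12, whose part in the neuron genes was not tested gene by gene.

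Among the 10 leading genes of this comparison were dimm, slo and Cam. dimm, a basic helix-loop-helix factor of peptide-secreting cells, was in 6 of 11 positive cells and 3 of 80 negative cells, at means of 82.6 and 3.30 CPM (log2 difference 4.28, and 5.14 without plate 10). slo, a calcium-activated potassium channel, was in 6 of 11 against 4 of 80 cells, at 0, 66.9 and 949 CPM in the lowest, median and highest positive cell (log2 difference 4.42, and 5.78 without plate 14). The calmodulin gene Cam was in 7 of 11 against 27 of 80 cells (log2 difference 3.08), but the median of the positive cells was 363.4 CPM, the mean 844.9 CPM and the highest cell 6149 CPM. Without plate 15, which held the cell with 12 neuron markers, the difference was 1.62, below the size rule.

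Peptide-processing enzymes were among the higher genes. Phm, which amidates peptides, was in 9 of 11 against 38 of 80 cells, with medians of 489.3 and 8.23 CPM and a log2 difference of means of 2.05. svr, a carboxypeptidase, was in 6 against 9 cells (log2 difference 2.49) and 7B2, a partner of the prohormone convertase amon, in 4 against 12 (log2 difference 2.06). amon itself was in none of the 11. The ion transport peptide gene ITP was in 5 against 16 cells. Phm and ITP overlap Sox14 and CG4622. pros, the factor that defines enteroendocrine cells, was in 1 of 11, and elav, which defines neurons, in 2.

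CG42240, for which no function is given here, had the highest log2 difference of the genes called higher besides Ptx1 in this comparison. It was in 7 of 11 against 3 of 80 cells, at means of 452.2 and 4.26 CPM (log2 difference 6.43, from 5.80 without plate 13 to 7.02 without plate 12). This did not carry over to the esg-negative cells, where it was in 1 of the 29 positive cells. lab, the Hox gene of the middle midgut, was in 6 of 11 against 10 of 80 cells (log2 difference 2.82).

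Progenitor genes mostly did not differ by the size rule between esg-positive cells with and without Ptx1. Of 5 Notch response genes 2 were lower with Ptx1, beside 1.03% of all genes compared. sna was in 7 of 11 and 61 of 80 cells, Sox100B in 7 and 43, fkh in 10 and 64, and the Notch response gene E(spl)mbeta-HLH in 9 and 64. exex, a homeodomain gene, was in 9 of 11 positive cells (81.8%, interval 48.2 to 97.7) and 33 of 80 negative cells (41.2%, interval 30.4 to 52.8), but its log2 difference of means was 1.32. Of 19 progenitor genes klu alone was lower, though not without plate 5, and of 5 Notch response genes E(spl)mgamma-HLH and h were lower (E(spl)mgamma-HLH alone without plate 8). E(spl)mgamma-HLH had no read in the 11 cells and was in 26 of 80 others. The lipid synthesis genes ATPCL and SREBP, each in 1 of 11 against 47 of 80 cells, were lower as well, at log2 differences of -4.36 (-7.61 without plate 5) and -2.87 (-8.29 without plate 1), as was CG1648 (0 against 40 cells).

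The 11 cells differed among themselves. NPFR, CG42240 and slo occurred together in 5 of them, and NPFR was at 0 reads in 3. The cell with 12 neuron markers, on plate 15, had 1 of 18 progenitor markers, and its esg level of 82.8 CPM was the lowest of the 11. The 2 cells of plate 17 had 8 contractile markers each, and the 1 esg-negative positive cell of that plate had 11. The part of these markers in the results was not tested.

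Set directly against each other, the esg-negative and the esg-positive Ptx1 cells differed in many genes, 6.06% of those compared being higher in esg-negative cells and 5.61% in esg-positive cells. Without 1 plate the first share ranged from 6.25% to 8.24%, the latter without plate 17. Of the tubule genes 11 of 21 were higher in esg-negative cells and none lower, and 9 of 19 progenitor genes were lower (esg, which chose the sets, with sna, Sox100B, exex, zfh2, hdc, N, spi and shg).

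Several genes were at 0 reads on one side. CG14292, Ssk, Nep2 and Lkr had no read in the 11 esg-positive cells, while their means in the 29 others were 7188, 5245, 1908 and 483.6 CPM. In the other direction E(spl)mbeta-HLH was in 9 of 11 esg-positive cells, at a median of 678.2 CPM, and had no read in the 29 esg-negative cells, and exex was likewise in 9 and without a read. fkh and NPFR were shared: fkh was in 22 of 29 and 10 of 11 cells, and NPFR in 18 of 29 and 8 of 11, with log2 differences of -1.22 and -0.55, both under the size rule.

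**Figure D4:**
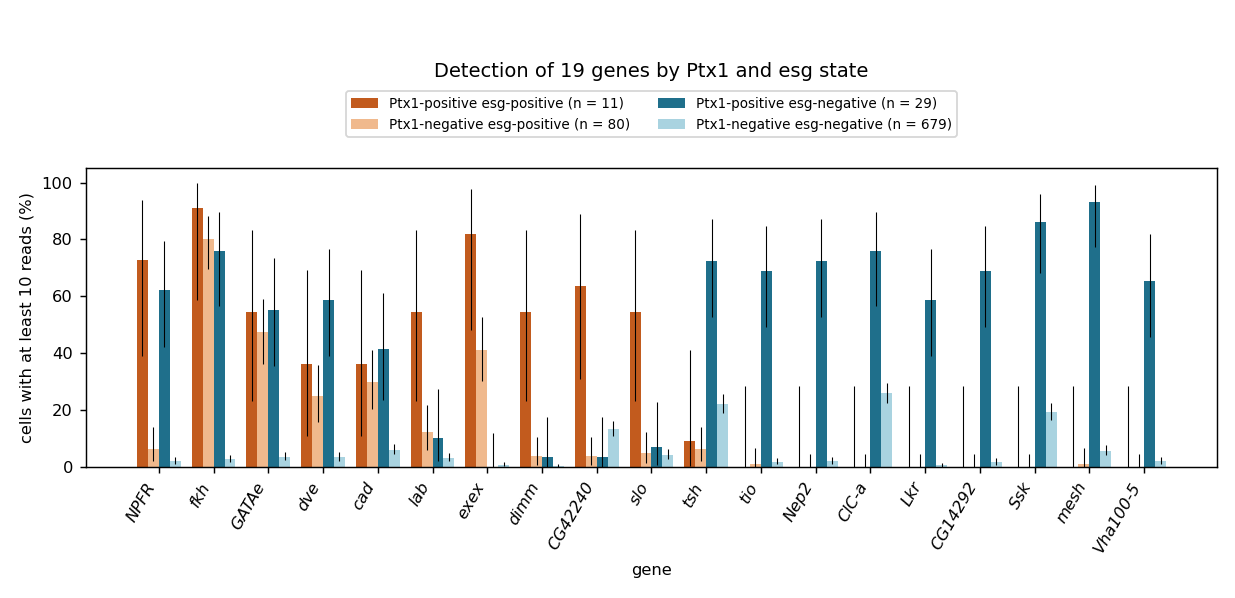
Share of cells with at least 10 reads of 19 genes in the 4 sets by Ptx1 and esg state (n = 11, 80 and 29 cells, and the Ptx1-negative esg-negative cells); lines are exact 95% binomial intervals, which cover counting error only. NPFR is high in both Ptx1-positive sets (72.7% and 62.1%) and low in both negative sets (6.25% and 2.06%), while tio, Nep2, Lkr, CG14292 and Vha100-5 are high in Ptx1-positive esg-negative cells alone.

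NPFR, the receptor for neuropeptide F (FBgn0037408, chromosome 3R, 6187315 to 6195403, plus strand), was called higher with Ptx1 in both esg states. It was at 10 reads in 26 of 40 positive cells (65%, interval 48.3 to 79.4) and 19 negative cells (2.5%, interval 1.51 to 3.88). After thinning the shares were 62.2% and 1.75%. Its mean was higher in the positive cells on 14 of 15 plates. In esg-positive cells the level was 0, 799.4 and 1961 CPM in the lowest, median and highest Ptx1-positive cell and at most 738.2 CPM in Ptx1-negative cells (log2 difference 5.12, and 6.0 without plate 15). In esg-negative cells it was 0, 267.1 and 2873 CPM, against a maximum of 800.6 CPM (log2 difference 6.65). The sets thus overlapped at 0 and at the lower levels, and the median Ptx1-positive esg-positive cell lay above the highest of the 80 negative ones. The gene overlaps no other gene in the annotation.

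The 2 comparisons within an esg state share no cell. Besides Ptx1 and NPFR they had 19 higher genes in common: Amph, CG10413, CG10425, CG12974, CG2556, CG6424, CG8398, Cam, Csp, Dh44-R2, GstD1, Lfg, Pde8, Pka-R2, Sur-8, Synd, btsz, fz3 and mTerf5. Counting Ptx1, which chose the cells, the 21 are 11.1% of the genes higher in esg-positive cells and 4.95% of those higher in esg-negative cells, beside 4.8% and 2.15% of all genes that were higher in the respective other comparison. No lower gene was common apart from CG13912, CG15717, CG1648 and cnn.

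**Figure D5:**
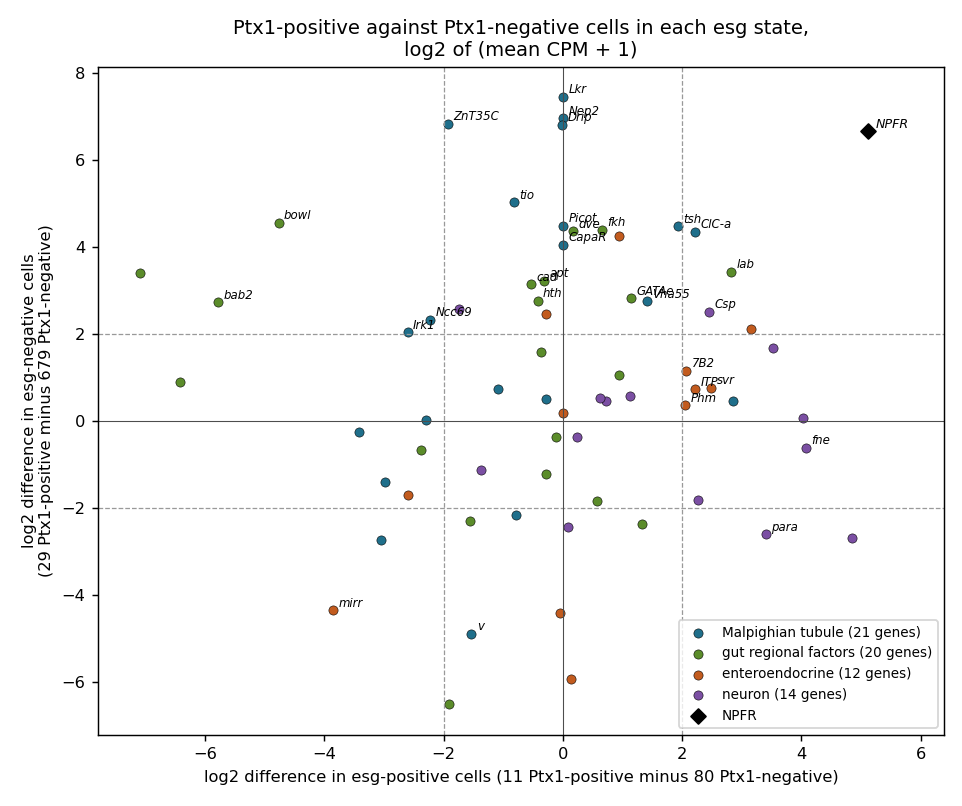
Difference of log2 (mean CPM + 1) between Ptx1-positive and Ptx1-negative cells in esg-positive cells (horizontal, 11 against 80 cells) and in esg-negative cells (vertical, 29 positive cells) for genes of 4 lists; dashed lines mark the size rule of 2, and genes called in either state are named. Lkr, Nep2 and Drip lie near 0 on the horizontal axis and at 6.80 to 7.44 on the vertical one, and NPFR lies at 5.12 and 6.65.

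Genes known from other cell types were among those lower in Ptx1-positive esg-negative cells. In that comparison 6 of 12 blood cell genes (Pxn, Ppn, Sr-CI, vkg, Col4a1 and drpr) and 6 of 7 fat body genes (apolpp, FASN1, Lsd-1, Adh, bmm and Mtp) were lower and none was higher. Of all genes compared there, 3.51% were lower. Among esg-positive cells none of the 12 blood cell or the 7 fat body genes was lower, beside 1.03% of all genes. There bmm was higher, beside 2.15% of all genes. Glt, a glutactin of basement membranes, was at a median of 2539 CPM and in 77.9% of the negative cells, and in 1 of 29 positive cells (log2 difference -8.06, and -11.87 without plate 12, which held that cell). Ance-5, a relative of angiotensin-converting enzyme, was in 55.2% of the negative cells and 1 positive cell, at no more than 3.48 CPM there, and CG1092 and sPLA2 were in none of the 29 (61.9% and 55.8% of the negative cells). NimB4 and NimB2, of the Nimrod family (NimB2 overlaps NimB1), were in 2 and 1 of 29 cells against 60.1% and 53.6% of the negative cells. The negative cells held a median of 3 of 12 blood cell and 3 of 7 fat body markers, against 1 and 1 in the 29 positive cells. The part of this mixture of cells in the differences was not tested.

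Within the neprilysin family, to which Nep2 belongs, Nep2 was the only one of 14 measured members that was higher, and 6 (CG3775, CG5527, CG4721, CG14528, Ance-4 and Ance-5) were lower. Of 16 mucin and peritrophic genes 3 were higher (Mur18B, Mur29B and Muc11A) and none lower. Mur18B, like Nep2, had marked these cells in earlier results. Over all genes compared here, 4.8% were higher and 3.51% lower. Of 24 contractile genes the non-muscle myosin light chain Mlc-c was the only one called higher and none was called lower, while the list's median log2 difference was -5.22.

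The genes detected in the cells most like those of Ptx1 were ranked by the Jaccard index, the number of cells with both genes over the number with either, among genes in at least 10 cells. CG33124 led, with 22 of its 29 cells Ptx1-positive (index 0.468), followed by axo (23 of 37, 0.426), NPFR (26 of 49, 0.413), Lgr1 (21 of 34, 0.396), ZnT35C (20 of 32, 0.385), CG15556 (18 of 25, 0.383), CG34284 (22 of 40, 0.379), CG42272 (17 of 22, 0.378), Nep2 (21 of 37, 0.375) and Lkr (17 of 23, 0.370). NPFR alone of these 10 had 10 reads in any esg-positive Ptx1 cell. axo overlaps 5 other annotated genes.

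No gene but Ptx1 itself separated the positive from the negative cells in full. CG14292 was found in 36 cells that passed, of which 20 were Ptx1-positive (55.6%) and 12 had no read of Ptx1. In those 12 cells tsh was in 9, fkh and tio in 7 each, Nep2 in 6 and NPFR in 5, while Ssk was in 12. Drip and Lkr were in 2 and 1 of them. The 12 cells had 114455 to 4280158 reads, with a median of 708756, beside a median of 770219 in the Ptx1-positive cells. Whether Ptx1 was absent from these 12 cells or missed at their depth was not tested.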

How the data were processed

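Single Mhc-TAU-GFP cells were profiled by Smart-seq2. The authors trimmed poly-A and pseudo-aligned the reads to Ensembl BDGP6 cDNA with kallisto (version 0.43.0 in the submitters' processing notes, with R 3.5.1). The deposited gene table holds estimated counts summed per gene and rounded by the authors to whole numbers, 1 column per cell, for 8862 genes that the authors had already filtered, so totals per cell cover these genes alone. It was used as deposited. The deposited file of each cell gives an estimated count and a TPM value per transcript. These served for the transcripts of Ptx1, whose sum matched the table within 0.51 reads in all 809 cells kept, and for the TPM alternative (30280 of 30651 transcripts had a gene in the BDGP6.54 annotation; the 371 others held 0.217% of the reads). Counting was not stated to use strand.

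Of 837 cells, 809 with at least 500 genes at 10 or more reads were kept; all columns of the table were mapped to a cell. The sets held 40 Ptx1-positive and 759 Ptx1-negative cells (799 in all, with 10 cells of 1 to 9 reads apart); of the former 11 were esg-positive and 29 esg-negative, of the latter 80 and 679. Doublets were not called and cells were not clustered. CPM was taken over all gene reads, 11 ribosomal RNA features included. Genes with 10 reads in at least 5 cells entered the comparisons (8828 of 8862), and log2(mean CPM + 1) was compared between sets, which understates the change of low genes. A gene was called at a difference of 2 with 25% of the cells of the higher set at 10 reads. Since all cells count as 1 sample, no test was run. Shares have exact Clopper-Pearson 95% intervals, and thinning took 256773 reads from each cell (the 10th percentile; 81 cells were shallower). Reads per cell ran from 98988 to 3918939 in Ptx1-positive and from 111230 to 6870936 in Ptx1-negative cells.

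The named genes were the 6 starting markers, the 10 called genes per direction and comparison with the largest fold among those at 10 reads in 50% of the cells of the higher set (not each is printed), members of 27 gene lists (330 of 468 symbols in the table), and the 10 genes most like Ptx1 by the Jaccard index. Other genes named were chosen after their values were seen. Members, lists and comparisons were chosen with earlier results of these data known. Steps were tested on simulated data, and used Python 3.11.15, numpy 2.4.6, pandas 2.3.3, scipy 1.17.1 and matplotlib 3.10.9. Alternatives tried were other read minimums for Ptx1, thinning, CPM without ribosomal RNA, TPM, offsets of 0.1 and 10 CPM, no gene filter, the mean of log2 values over cells, and each plate left out.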

Additional observations from a re-analysis of the deposited data

Results flagged for a closer look

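The 10 cells with 1 to 9 reads of Ptx1 entered no comparison, yet genes of the Ptx1-positive cells reached 10 reads in some of them, above their share in Ptx1-negative cells. NPFR, CG14292 and CG34284 were each in 4 of 10 (40%, exact interval 12.2 to 73.8), and Nep2, Lkr and tio each in 2 of 10 (20%, interval 2.52 to 55.6). In the same 10 cells fkh was in 7, GATAe in 4 and esg in 3. The level of Ptx1 was 1.0 to 47.9 CPM there, with a median of 7.23, so the highest of these cells stood above the lowest positive cell, at 10.7 CPM. Of the 28 cells that failed the gene minimum, 1 had 10 reads of Ptx1 (3.57%).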

How the results depend on the processing

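The share of Ptx1-positive cells was 6.18% at 1 read, 5.44% at 5 reads (chosen after seeing the data), 4.08% at 50 reads, 4.67% after thinning, 4.90% over all deposited cells and 4.59% to 5.22% with each plate left out. The esg-positive share of positive cells was 24.3% to 30.6% with each plate left out. The mean of log2 values over cells raised the share of genes called higher to 5.99% over all cells (3.82% in the report) and to 7.63% in esg-negative cells (4.8%), and an offset of 10 CPM lowered it to 1.21% in esg-positive cells (2.15%). The mean of log2 values kept 77.7% of the higher and 73.8% of the lower calls over all cells, 85.4% and 73.2% in esg-negative cells, 44.2% and 42.9% in esg-positive cells, and 79.1% and 45.1% between the Ptx1-positive sets; the offset of 10 CPM kept 56.3% of the higher calls in esg-positive cells. With each plate left out it was 3.55% to 4.2% over all cells (2.90% to 3.13% lower), 1.87% to 2.32% in esg-positive cells, 4.37% to 5.34% in esg-negative cells and 6.25% to 8.24% between the Ptx1-positive sets. Without the esg-negative positive cells under 10 reads of CG14292, an alternative also chosen after seeing the data, 6.2% of genes were higher, among them 94.6% of those called before. Gene lists with each plate left out, given in the report where a count changed most, were chosen after seeing the data as well. Of 660 values of named genes under alternatives other than leaving out a plate, 67% moved by no more than the largest shift from leaving out 1 plate, 33% moved by more and 0 changed sign; the causes were not tested. The small number of esg-positive Ptx1 cells, 11, limits every value set on them.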
